A study of Homo sapiens with 12 samples.

Results

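The difference between the Erastin responses of 2 neuroblastoma (NB) cell lines was measured for every gene, as the log2 fold change in SK-N-AS cells minus the log2 fold change in KELLY cells. A positive difference means a larger rise or a smaller fall in SK-N-AS, written below as "toward SK-N-AS", and a negative difference is written as "toward KELLY". All 12 of the 12 RNA-seq samples entered the comparison. Of the 58735 rows of the count tables, 18239 passed the filter on low counts, and 15601 of these also had a GC content and could be tested after the GC trend of each library had been removed.

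Both lines are established human NB lines, MYCN amplified in KELLY and not amplified in SK-N-AS. The 4 groups of 3 samples were KELLY with DMSO, KELLY with 1 µM Erastin, SK-N-AS with DMSO and SK-N-AS with 2 µM Erastin, all taken at 24 h. The dose differed with the line, so that an effect of line and an effect of dose cannot be told apart in any value below. The study's methods describe wells seeded in triplicate within each line, so that p-values measure the spread between such samples.

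Erastin blocks system Xc, the antiporter of SLC7A11 and SLC3A2 that brings cystine into the cell in exchange for glutamate. Cystine supplies cysteine for glutathione, and its loss can lead to ferroptosis, a form of cell death by lipid peroxidation. Shortage of amino acids is known to activate the integrated stress response (ISR), in which the transcription factor ATF4 induces genes of amino acid synthesis, transport and tRNA charging, and oxidative stress is known to activate NRF2, which induces genes of the thioredoxin and glutathione systems.

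Total counts per sample lay between 24169796 and 29835670. All 10 adrenergic NB markers were detected in both lines, although TH and DBH, enzymes of catecholamine synthesis, were low in SK-N-AS (means of 2.81 and 4.83 CPM with DMSO). RUNX1 had no count in KELLY, and 4 of 14 mesenchymal markers had at most 10 counts in every KELLY library. Libraries of a group differed in how their deviation from the mean of their line followed gene GC content. Spearman's correlation of this deviation with GC content across genes, which are not independent replicates, lay between -0.83 and 0.87 for KELLY libraries. For SK-N-AS libraries it lay between -0.75 and 0.77. Removing this trend lowered the biological coefficient of variation, which went from 0.25 to 0.13 for KELLY and from 0.105 to 0.0551 for SK-N-AS. Replicate 1 of KELLY with DMSO, of KELLY with Erastin and of SK-N-AS with Erastin held reads of the haemoglobin gene HBB (208, 91 and 40 counts), while of 12 blood cell markers 10 (KELLY) and 8 (SK-N-AS) had at most 10 counts in every library. An exception was PTPRC, the leukocyte surface marker CD45, at a mean of 548 CPM in SK-N-AS with DMSO and 488 CPM with Erastin and at 0 in KELLY.

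On the counts as deposited, STC2 alone had a different response in the 2 lines at an adjusted p under 0.05, 1 of 18239 genes tested (0.00548%). With the GC trend removed, 20 of 15601 genes passed (0.128%), 13 toward SK-N-AS (0.0833%) and 7 toward KELLY (0.0449%). The 13 were PHGDH, PSAT1 and MTHFD2 of serine and one-carbon synthesis, ATF4, CEBPG and CHAC1 of the ISR, the amino acid transporters SLC1A4 and SLC7A5, the alanyl-tRNA synthetase AARS, the NRF2 targets GCLM and TXNRD1, and PPM1E and DDR2. The 7 were STC2, STC1, ASS1, CDKN1A, DDC, IGFBP5 and PLAU. All 20 differences had the same sign without the GC correction, and their sizes ranged from 0.54 to 3.34 on the log2 scale.

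**Figure D1:**
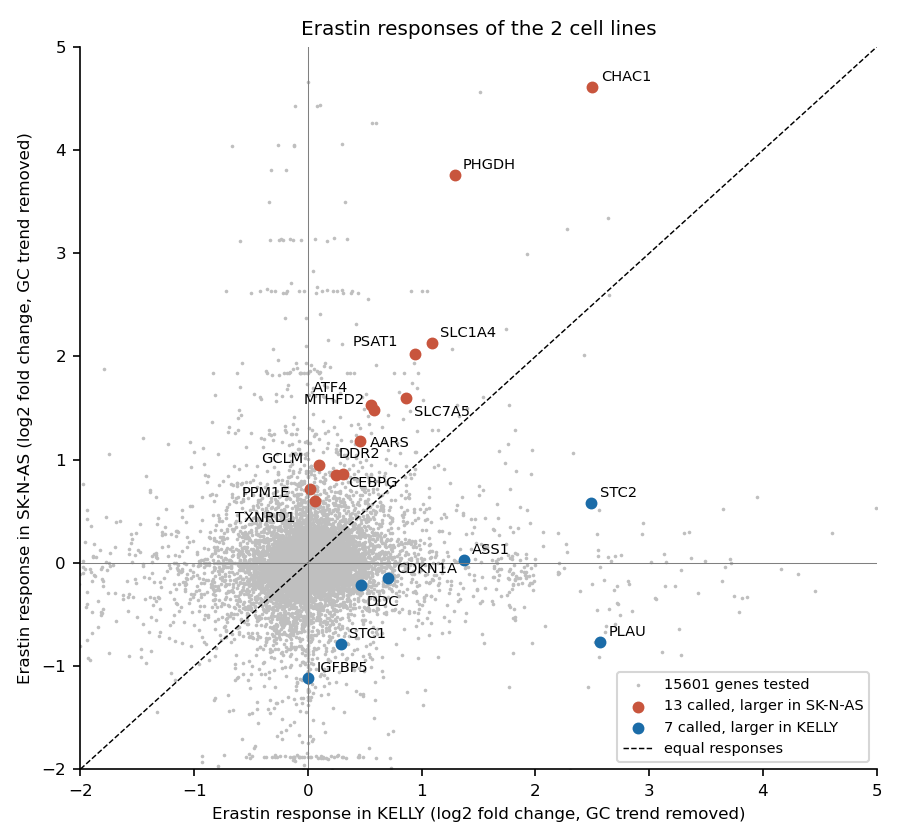
Erastin response (log2 fold change against DMSO, GC trend removed) of KELLY on the horizontal and of SK-N-AS on the vertical axis for the 15601 genes tested, grey, of which 151 lie outside the axes. Red points are the 13 genes called toward SK-N-AS, above the dashed line of equal responses, and blue points the 7 called toward KELLY, below it.

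The responses themselves passed an adjusted p under 0.05 with the GC trend removed for 121 genes in KELLY (0.776%), 77 up and 44 down, and for 208 genes in SK-N-AS (1.33%), 127 up and 81 down. These tests used a common spread per gene over all 12 libraries, so that the larger spread of KELLY also entered the SK-N-AS tests. Neither count rests on the replicates of its line alone. Of the 13 genes toward SK-N-AS, all 13 had risen in SK-N-AS and 8 had also risen in KELLY, so that these 8 differed in the size of a rise that both lines had. Of the 7 genes toward KELLY, STC2 alone had changed in both lines, rising in each. ASS1, DDC and CDKN1A had passed the test of a rise in KELLY, and STC1, IGFBP5 and PLAU the test of a fall in SK-N-AS.

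A stretch of the promoter is shown for the 3 called genes that hold the motif TGATGNAA, the composite C/EBP-ATF element that ATF4 is known to bind, in the 250 bases before a RefSeq start site (GRCh38.p14, both strands searched). These were 3 of 13 genes toward SK-N-AS and 0 of the 6 toward KELLY that could be matched, beside 1061 of 27305 genes in all (3.89%). Each stretch has 30 bases on the strand of its gene, with the motif or its reverse complement in capitals.
CHAC1, chr15:40953251-40953280, plus strand, motif 209 bases before the start: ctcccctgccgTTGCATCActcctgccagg
AARS, chr16:70289675-70289704, minus strand, motif 187 bases before the start: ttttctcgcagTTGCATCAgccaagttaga
CEBPG, chr19:33374060-33374089, plus strand, motif 42 bases before the second of its starts: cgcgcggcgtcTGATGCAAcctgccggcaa
A match is a description of these letters and not of binding. STC2, whose response was toward KELLY, held no match in its window.

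STC2 (chromosome 5, 173314723 to 173328447, minus strand) encodes stanniocalcin 2, a secreted glycoprotein and a known target of the ISR. In KELLY its level was 4.74, 4.67 and 4.23 CPM with DMSO and 30.2, 25.2 and 26.5 CPM with Erastin. In SK-N-AS the DMSO libraries had 65.6, 59.8 and 55.1 CPM and the Erastin libraries 81.1, 102 and 85.1 CPM. The Erastin libraries were above the DMSO libraries in each line without overlap, and every SK-N-AS library was above every KELLY library. With the GC trend removed, the log2 fold change was 2.49 ± 0.10 (SE) for KELLY and 0.57 ± 0.08 (SE) for SK-N-AS. The difference was -1.91 ± 0.13 (SE; adjusted p = 1.6e-05, edgeR), and without the correction -2.02 ± 0.19 (SE; adjusted p = 0.0022). SK-N-AS had 13.2 times the KELLY level of STC2 with DMSO and 3.27 times that level with Erastin.

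ASS1 (chromosome 9, 130444961 to 130501274, plus strand), argininosuccinate synthase of arginine synthesis, rose in KELLY alone by the test. KELLY libraries had 66.4, 132 and 104 CPM with DMSO and 351, 292 and 283 CPM with Erastin, without overlap. The SK-N-AS levels overlapped, at 1063, 1069 and 852 CPM with DMSO and 952, 1074 and 940 CPM with Erastin. The difference was -1.35 ± 0.13 (SE; adjusted p = 6.3e-04), while on the counts as deposited it was not called (adjusted p = 0.36, edgeR). It passed there by DESeq2 (adjusted p = 5.7e-04), with no filter on low counts and without replicate 2 of KELLY with DMSO. The genome holds ASS1 pseudogenes, of which the 11 named in the tables had at most 357 reads each over the 12 libraries beside 191733 reads of ASS1.

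STC1, stanniocalcin 1, the paralog of STC2, had a level of 11.4, 11.1 and 11.9 CPM in KELLY with DMSO and 11.6, 13.9 and 13.7 CPM with Erastin. In SK-N-AS it fell from 28.8, 32.0 and 31.4 CPM to 18.8, 18.4 and 16.3 CPM. Both stanniocalcins therefore leaned toward KELLY, STC2 through a larger rise there and STC1 through a fall in SK-N-AS, with a difference of -1.08 ± 0.13 for STC1 (SE; adjusted p = 0.0036). The other 6 tested genes for secreted stress factors included ADM2, INHBE and VEGFA, which rose in both lines with differences between -0.12 and 0.95, and no call. Over the 8 tested genes of this list the differences ran from -1.91 to 1.62. Their median was -0.09, or -0.31 on the counts as deposited.

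DDC, aromatic L-amino acid decarboxylase of catecholamine synthesis, had 285, 381 and 330 CPM in KELLY with DMSO and 553, 440 and 464 CPM with Erastin. In SK-N-AS its level was 82.5, 81.1 and 78.4 CPM with DMSO and 69.7, 67.2 and 70.6 CPM with Erastin. The libraries were apart in both lines, upward in KELLY and downward in SK-N-AS. The SK-N-AS change did not pass the edgeR test, whose spread is shared with KELLY (log2 fold change -0.22, adjusted p = 0.19). By the SK-N-AS libraries alone this change was -11.2 ± 2.28 CPM (SE, GC trend removed). The difference was -0.68 ± 0.09 (SE; adjusted p = 0.0077). DBH, the next enzyme of the same pathway, had a difference of -0.62 ± 0.12 that missed the threshold (SE; adjusted p = 0.11), with means of 4.83 and 4.06 CPM in SK-N-AS.

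CDKN1A, the cyclin-dependent kinase inhibitor p21, was at 22.1, 38.8 and 31.6 CPM in KELLY with DMSO and at 79.7, 44.2 and 58.1 CPM with Erastin. The SK-N-AS levels overlapped, at 23.9, 23.3 and 19.6 CPM with DMSO and 17.1, 24.3 and 17.8 CPM with Erastin. The difference was -0.85 ± 0.14 (SE; adjusted p = 0.031). The call was lost in 9 of the 12 fits that left out 1 library, with an adjusted p of up to 0.16 without replicate 3 of SK-N-AS with Erastin.

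IGFBP5, a binding protein of insulin-like growth factors, had 21.3, 27.9 and 25.5 CPM with DMSO and 27.7, 23.0 and 30.6 CPM with Erastin in KELLY, where the groups overlapped. SK-N-AS libraries went from 17.2, 15.5 and 14.2 CPM to 7.89, 6.33 and 7.17 CPM, without overlap, and the difference was -1.12 ± 0.16 (SE; adjusted p = 0.0095). PLAU, the urokinase plasminogen activator, fell in SK-N-AS from 617, 529 and 449 counts to 292, 379 and 292 counts. In KELLY it had 0, 1 and 1 counts with DMSO and 5, 4 and 6 counts with Erastin, a ratio of 7.61 (95% interval 1.77 to 68.6, counting error only). Its difference of -3.34 thus rests on 17 reads in KELLY, and its adjusted p of 0.046 passed in none of the 12 fits that left out 1 library.

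PHGDH (chromosome 1, 119648411 to 119744218, plus strand), which catalyzes the entry step of serine synthesis from glycolysis, had the largest difference of the 13 genes toward SK-N-AS. In SK-N-AS it went from 8.43, 8.19 and 6.17 CPM to 75.0, 132 and 99.7 CPM. In KELLY it went from 166, 287 and 223 CPM to 763, 471 and 556 CPM. The lines did not overlap under either treatment, since the highest SK-N-AS library with Erastin remained below the lowest KELLY library with DMSO. The log2 fold change was 3.76 in SK-N-AS and 1.29 in KELLY, and the difference 2.47 ± 0.25 (SE; adjusted p = 6.3e-04). On the counts as deposited the difference was 2.35 ± 0.36, with an adjusted p of 0.21.

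PSAT1, the next enzyme of serine synthesis, had 63.3, 76.8 and 78.7 CPM in SK-N-AS with DMSO and 238, 340 and 306 CPM with Erastin. The KELLY libraries had 130, 90.2 and 98.7 CPM with DMSO and 151, 209 and 195 CPM with Erastin. PSAT1 was thus the higher in KELLY before and the higher in SK-N-AS after Erastin, with a difference of 1.07 ± 0.16 (SE; adjusted p = 0.010). MTHFD2, a mitochondrial enzyme of the folate cycle, rose from 97.4, 108 and 113 CPM to 265, 326 and 294 CPM in SK-N-AS. Its KELLY libraries overlapped, at 362, 301 and 320 CPM with DMSO and 357, 536 and 470 CPM with Erastin, and were apart with the GC trend removed. The difference was 0.89 ± 0.12 (SE; adjusted p = 0.0050).

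The list of 18 serine, glycine and one-carbon enzymes held these 3 calls and none toward KELLY. Its median difference was 0.03, beside 0.01 for all genes tested. In each line 6 members rose and none fell by the test, beside 77 (KELLY) and 127 (SK-N-AS) risen genes among all 15601. PSPH, the enzyme that follows PSAT1, and SHMT2, which makes glycine in mitochondria, rose in both lines, by log2 fold changes of 0.78 and 0.94 in KELLY and 1.16 and 1.07 in SK-N-AS. ALDH1L2, a mitochondrial folate enzyme, went the other way, with a rise of 1.39 in KELLY and 0.28, not past the test, in SK-N-AS.

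**Figure D2:**
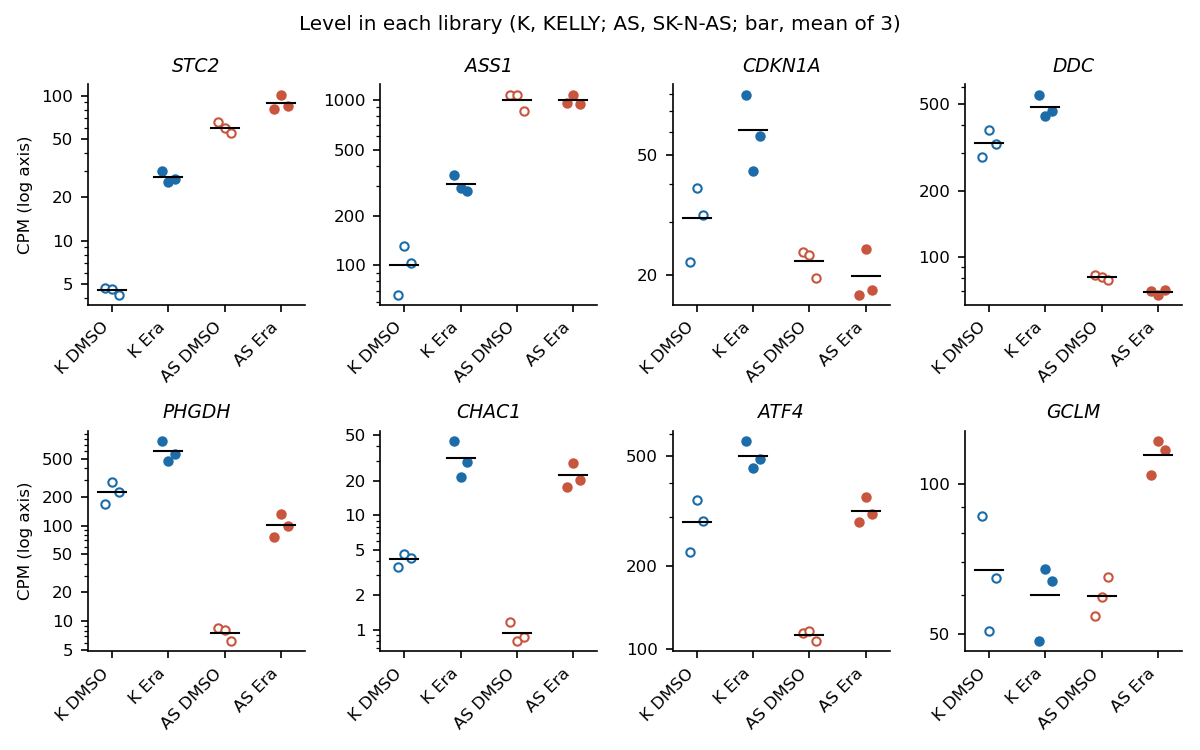
CPM in each of the 12 libraries (TMM scaled, before removal of the GC trend, log axis, a scale per panel) for 4 genes toward KELLY, top, and 4 toward SK-N-AS, bottom. Open points are DMSO and filled points Erastin, blue KELLY and red SK-N-AS, with a bar at the mean of 3, and in the ASS1 and CDKN1A panels the 2 SK-N-AS groups overlap, as the 2 KELLY groups do for GCLM.

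ATF4 (chromosome 22, 39519695 to 39522683, plus strand), the central transcription factor of the ISR, had 114, 116 and 106 CPM in SK-N-AS with DMSO and 289, 355 and 307 CPM with Erastin. In KELLY it had 225, 347 and 291 CPM with DMSO and 568, 453 and 486 CPM with Erastin. Both lines rose without overlap, and the log2 fold change was 1.53 in SK-N-AS and 0.55 in KELLY, a difference of 0.97 ± 0.12 (SE; adjusted p = 0.0041). CEBPG, a dimerization partner of ATF4, rose in SK-N-AS from 24.4, 26.5 and 27.1 CPM to 47.3, 46.9 and 46.9 CPM. Its KELLY libraries overlapped, with means of 70.7 ± 8.88 and 75.1 ± 11.2 CPM (SD, n = 3), and the difference was 0.61 ± 0.09 (SE; adjusted p = 0.0077).

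CHAC1 (chromosome 15, 40952962 to 40956512, plus strand), a glutathione-degrading enzyme and known ATF4 target, went from 32, 20 and 23 counts to 476, 848 and 527 counts in SK-N-AS. In KELLY it went from 92, 114 and 121 counts to 1087, 559 and 804 counts. The libraries were apart in both lines, with log2 fold changes of 4.61 in SK-N-AS and 2.50 in KELLY, and the difference was 2.11 ± 0.27 (SE; adjusted p = 0.00415). KELLY had 4.38 times the CHAC1 level of SK-N-AS with DMSO and 1.42 times with Erastin.

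Of 21 tested ISR genes, 13 rose in KELLY and 17 in SK-N-AS, beside 77 and 127 of all 15601 genes, and none fell in either line. ATF4, CEBPG and CHAC1 were called toward SK-N-AS and STC2 toward KELLY. The median difference was 0.15, or 0.13 without NUPR1, and on the counts as deposited it was -0.06. NUPR1, a stress-induced nuclear protein, had no count in any KELLY library, and in SK-N-AS it had 2, 1 and 1 counts with DMSO and 21, 63 and 32 counts with Erastin. SESN2, a brake on mTORC1, rose by 1.40 in KELLY and 1.5 in SK-N-AS, and ATF3 by 0.95 and 1.07. ASNS, asparagine synthetase, rose by 1.74 and 2.27, while DDIT4 and VLDLR rose by 1.82 and 1.20 in KELLY and by 1.29 and 0.91 in SK-N-AS. The differences of these 5 genes did not pass the test.

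AARS, which charges tRNA with alanine, had 123, 116 and 103 CPM in SK-N-AS with DMSO and 237, 287 and 245 CPM with Erastin. In KELLY it went from 173, 264 and 230 CPM to 393, 290 and 329 CPM, and the difference was 0.73 ± 0.09 (SE; adjusted p = 0.00415). It was the 1 call among 20 cytosolic aminoacyl-tRNA synthetases, with a median difference of 0.13. Of these 20, 9 rose in KELLY, while 11 did so in SK-N-AS, beside 77 and 127 of all 15601 genes. GARS, the glycyl-tRNA synthetase, had a difference of 0.81 ± 0.15 on the counts as deposited (SE; adjusted p = 0.36) and of 0.58 ± 0.18 with the GC trend removed (SE; adjusted p = 0.40). CARS and EPRS rose in both lines with differences of 0.55 and 0.38 that were not called.

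SLC1A4, a transporter of alanine, serine and cysteine, rose from 10.7, 8.07 and 8.72 CPM to 32.9, 48.3 and 39.0 CPM in SK-N-AS and from 18.9, 22.6 and 21.1 CPM to 49.0, 45.1 and 46.0 CPM in KELLY. SLC7A5, which carries large neutral amino acids together with SLC3A2, rose from 119, 98.1 and 83.1 CPM to 245, 352 and 277 CPM in SK-N-AS. Its KELLY libraries went from 246, 427 and 375 CPM to 981, 665 and 756 CPM. The differences were 1.04 ± 0.17 (adjusted p = 0.026) for SLC1A4 and 0.73 ± 0.13 (adjusted p = 0.046) for SLC7A5, and both calls were lost in some of the fits that left out 1 library, 7 of 12 for SLC1A4 and 9 of 12 for SLC7A5.

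SLC7A11, the transporter that Erastin blocks, had no difference past the threshold. Its KELLY libraries had 31.9, 16.9 and 21.9 CPM with DMSO and 60.3, 137 and 110 CPM with Erastin, and its SK-N-AS libraries 48.3, 53.1 and 59.3 CPM with DMSO and 189, 226 and 225 CPM with Erastin. The rise was 2.43 in KELLY and 2.01 in SK-N-AS, and the difference -0.42 ± 0.14 (SE; adjusted p = 0.42). SLC3A2, its partner chain, rose by 0.81 and 1.06, with a difference of 0.25 ± 0.16 (SE; adjusted p = 0.67). Among 14 amino acid transporters 5 rose in KELLY and 7 in SK-N-AS, beside 77 and 127 of all 15601 genes, and the median difference was 0.21. The arginine transporter SLC7A1 was just outside the threshold at 0.60 ± 0.11 (SE; adjusted p = 0.090).

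GCLM, the modifier subunit of the enzyme that begins glutathione synthesis, had 54.5, 59.6 and 65.2 CPM in SK-N-AS with DMSO and 104, 122 and 117 CPM with Erastin. KELLY libraries overlapped, at 86.3, 50.9 and 64.9 CPM with DMSO and 48.4, 67.7 and 64.0 CPM with Erastin, and they overlapped with the GC trend removed as well. The difference was 0.84 ± 0.12 (SE; adjusted p = 0.0077). TXNRD1, thioredoxin reductase 1, was at 332 to 356 CPM in the 6 DMSO libraries of both lines and at 339, 360 and 364 CPM in KELLY with Erastin. In SK-N-AS with Erastin it was at 464, 570 and 501 CPM, above every other library, and the difference was 0.54 ± 0.09 (SE; adjusted p = 0.046). This call held in 1 of the 12 fits that left out 1 library.

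Of 20 NRF2 targets, 2 rose in KELLY and 7 in SK-N-AS, beside 77 and 127 of all 15601 genes. The difference was toward SK-N-AS for 16 of them, beside 52.1% of all genes. The median difference was 0.27, or 0.17 on the counts as deposited. HMOX1, heme oxygenase 1, rose in both lines by 0.93 and 1.94, with a difference of 1.01 ± 0.25 that was not called (SE; adjusted p = 0.22). NQO1, ME1 and FTH1 rose in SK-N-AS, by 0.42, 0.31 and 0.56, and had log2 fold changes of 0.14, -0.01 and 0.18, not past the test, in KELLY. Among 28 ferroptosis executors and defenses, GCLM was the 1 call and the median difference was 0.06.

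PPM1E, a protein phosphatase, rose in SK-N-AS from 9.28, 10.6 and 12.6 CPM to 18.3, 17.8 and 17.1 CPM, while KELLY had means of 105 ± 21.9 and 95.4 ± 17.6 CPM (SD, n = 3). DDR2, a receptor tyrosine kinase for collagen, rose from 235, 241 and 268 CPM to 419, 467 and 466 CPM in SK-N-AS, beside KELLY means of 373 ± 46.7 and 415 ± 86.9 CPM (SD, n = 3). The differences of 0.70 ± 0.12 (adjusted p = 0.031) and 0.55 ± 0.09 (adjusted p = 0.036) were called in 4 and in 3 of the 12 fits that left out 1 library.

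**Figure D3:**
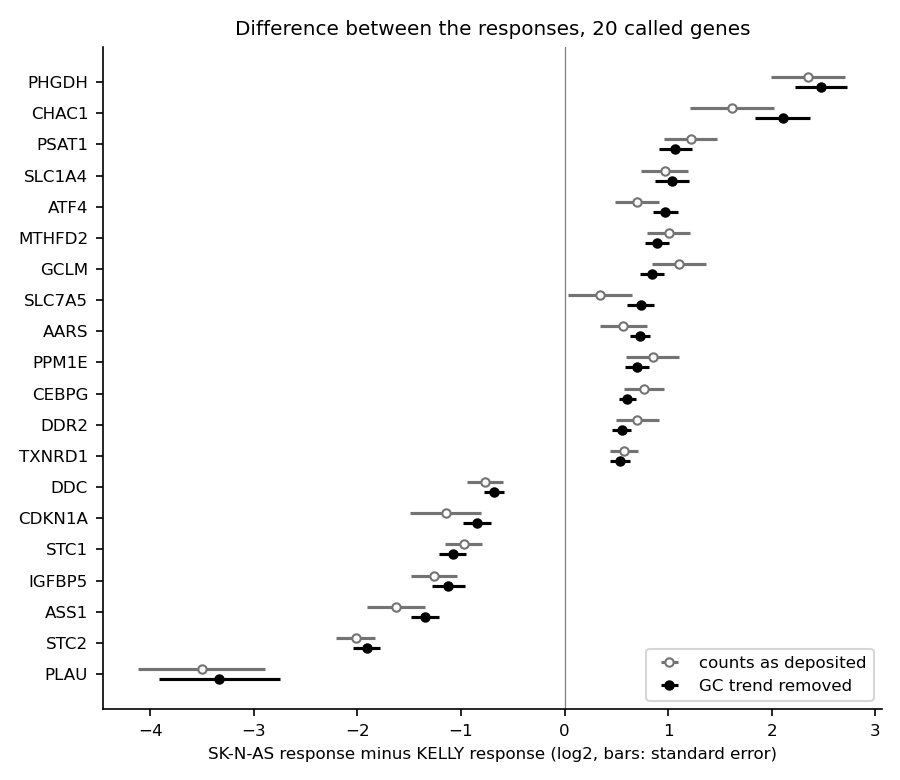
SK-N-AS response minus KELLY response (log2) for the 20 called genes, with bars of 1 standard error, on the counts as deposited (open) and with the GC trend removed (filled). Every pair lies on the same side of 0, and SLC7A5 and CHAC1 moved most toward SK-N-AS on correction, from 0.34 to 0.73 and from 1.61 to 2.11.

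Among the 20 genes, 12 passed in all 12 fits that left out 1 library with the GC trend removed: STC2, ASS1, ATF4, MTHFD2, AARS, PHGDH, DDC, GCLM, CEBPG, IGFBP5, STC1 and CHAC1. PSAT1 passed in 11 of them. By limma-voom with a spread per line and the GC trend removed, GCLM (adjusted p = 0.083), CHAC1 (0.054) and PSAT1 (0.22) did not pass. On either side of the threshold, SLC7A5, TXNRD1 and PLAU had an adjusted p of 0.046, while CLIC4, SLC7A1 and COL1A1 had 0.064, 0.090 and 0.11. Without the 3 libraries that held haemoglobin reads, the GC-corrected test called 41 genes, 19 of the 20 among them.

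The study's methods combine a fold of at least 1.5 with an unadjusted p no higher than 0.05. Applied to the ratio of the 2 responses, 644 genes passed on the counts as deposited (3.53%), 262 toward SK-N-AS and 382 toward KELLY. With the GC trend removed 493 passed (3.16%), 242 toward SK-N-AS and 251 toward KELLY. The unadjusted p was under 0.05 for 776 genes (4.25%) before and for 1291 genes (8.28%) after removal of the trend. Many genes at this threshold were nearly silent in 1 line: of 2694 genes with fewer than 10 counts on average in 1 line 7.28% passed, and of 12907 with more in both lines 2.30%.

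The level before treatment was set beside the responses, without a test, because the DMSO libraries enter both. All 13 genes toward SK-N-AS had the lower mean CPM in SK-N-AS with DMSO, by little for TXNRD1 (338 against 350 CPM) and GCLM (59.8 against 67.4 CPM). Of the 7 toward KELLY, STC2, ASS1, STC1 and PLAU were lower in KELLY with DMSO, and DDC, IGFBP5 and CDKN1A were higher. For 14 of the 20 genes the lines were closer with Erastin than with DMSO, and for 6 they were further apart. A larger response in the line with the lower level narrows the gap by construction, unless the lines cross. The shares of all genes tested were not computed for these counts. The KELLY level of PHGDH was 29.7 times that of SK-N-AS with DMSO and 5.83 times with Erastin, and that of MTHFD2 went from 3.09 to 1.54 times. DDC moved apart, from 4.12 to 7.02 times, and so did CDKN1A, from 1.39 to 3.07 times. DDR2, GCLM, PSAT1 and TXNRD1 were higher in KELLY with DMSO and higher in SK-N-AS with Erastin.

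**Figure D4:**
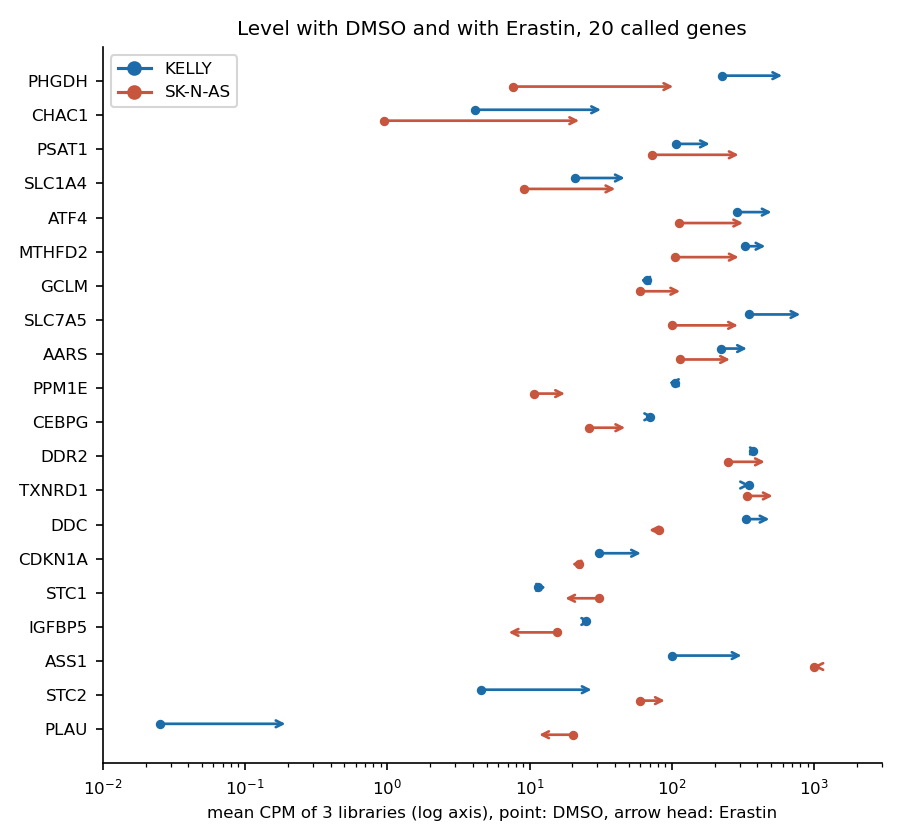
Mean CPM of 3 libraries (log axis, before removal of the GC trend) with DMSO, point, and with Erastin, arrow head, in KELLY (blue) and SK-N-AS (red), for the 20 called genes in order of their difference. For PHGDH the SK-N-AS arrow spans 7.60 to 102 CPM and the KELLY arrow 226 to 596 CPM, so that the longer arrow belongs to the line with the lower level.

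The gap between the lines was also averaged over DMSO and Erastin, which weights both treatments equally, although it is built from the same 12 libraries. By this gap, 3366 genes were over 2-fold higher in SK-N-AS, and 3 of them were called, all toward KELLY (ASS1, PLAU and STC2). Among 3198 genes over 2-fold higher in KELLY 10 were called, 7 toward SK-N-AS (ATF4, CEBPG, CHAC1, MTHFD2, PHGDH, PPM1E and SLC7A5) and 3 toward KELLY (CDKN1A, DDC and IGFBP5). The remaining 9037 genes within 2-fold had 7 calls, 6 toward SK-N-AS and STC1 toward KELLY. The median difference of the 3 classes was -0.02, 0.03 and 0.02 in this order. At the threshold of the methods the share toward SK-N-AS was 42.6%, 53.8% and 51.6%.

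Read on a linear scale, the order of the lines changed for some of these genes. The increment with Erastin was 333 ± 55.2 CPM in KELLY and 94.7 ± 15 CPM in SK-N-AS for PHGDH (SE, GC trend removed), although its fold was the larger in SK-N-AS. SLC7A5 gained 315 ± 35.6 CPM in KELLY and 197 ± 23.0 CPM in SK-N-AS. CHAC1 gained 21.8 ± 1.11 and 21.7 ± 2.63 CPM, and STC2 21.6 ± 0.54 and 29.3 ± 5.12 CPM, differences within 2 standard errors. Of the 7 genes toward KELLY, 6 had the larger increment in KELLY, each by over 2 standard errors. For IGFBP5, PLAU and STC1 among them the KELLY increment was 0.02, 0.16 and 2.46 CPM, and the SK-N-AS change was a fall (-8.39, -8.25 and -13 CPM). Of the 13 genes toward SK-N-AS, 10 had the larger increment in SK-N-AS, 7 of them by over 2 standard errors. ATF4, AARS, PSAT1, GCLM, CEBPG, DDR2 and TXNRD1, the 7 past 2 standard errors toward SK-N-AS, thus responded more there on both scales. Without the GC correction the increments differed by -9.29 ± 52.8 CPM for ATF4, 27.5 ± 43.5 CPM for AARS and 16.6 ± 8.31 CPM for CEBPG (SE). These 3 were each within 2 standard errors.

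Erastin and DMSO libraries of a gene did not overlap in CPM for 1543 genes when compared within KELLY (8.46%) and for 2548 within SK-N-AS (14.0%). Of the 20 called genes, 12 were apart in KELLY and 18 in SK-N-AS. After removal of the GC trend the counts were 17 and 18, and the 3 that overlapped in KELLY were GCLM, IGFBP5 and PPM1E. CEBPG, DDR2, MTHFD2, STC1 and TXNRD1 thus overlapped there before the correction and not after it. The share of all genes that were apart after the correction was not computed. The 20 genes were called from these same libraries and on that scale. Neither their counts of 12, 17 and 18 nor the rise from 12 to 17 is therefore a result about them. On both scales the 2 that overlapped in SK-N-AS were ASS1 and CDKN1A.

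Other lists held few or no calls. Of 24 cell cycle genes, 22 had a difference toward SK-N-AS, beside 52.1% of all genes, with a median of 0.11 and no call. By the test 3 of them fell in KELLY (CCNB1, BUB1 and CDC20, of mitosis), by 0.41, 0.36 and 0.33 on the log2 scale. Over all 15601 genes 44 fell in KELLY. The difference was 0.23 ± 0.09 for CCNB1 (SE; adjusted p = 0.54). Of 19 p53 targets and CDK inhibitors, 4 had a difference toward SK-N-AS, beside the same 52.1% of all genes. CDKN1A was the 1 call, and the median was -0.16 (-0.36 on the counts as deposited). BBC3, a pro-apoptotic BCL2 family gene, rose by 1.5 in KELLY and had a log2 fold change of 0.65, not past the test, in SK-N-AS. The 28 tested genes of cholesterol and fatty acid synthesis had a median difference of 0.01 and no call. By the test 5 members fell in KELLY and 2 in SK-N-AS, HMGCS1 and INSIG1 in both, beside 44 and 81 of all 15601 genes. On the counts as deposited the median difference of this list was -0.17.

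ER chaperones (20 genes, median 0.02), MAPK output genes (14, median 0.07), aryl hydrocarbon receptor genes (6, median -0.32), adrenergic markers (10, median -0.10) and mesenchymal markers (14, median -0.06) had no call. On the counts as deposited the medians were -3.2e-04, -0.10, -0.24, -0.34 and -0.09 in this order, with the sign turned for ER chaperones and MAPK output genes. Without members near 0, the GC-corrected median was 0.15 for MAPK output genes, -0.19 for aryl hydrocarbon receptor genes and -0.02 for mesenchymal markers. SPRY4, a feedback inhibitor of MAPK signaling, fell by 0.58 in KELLY and had a log2 fold change of -0.04 in SK-N-AS. Other amino acid enzymes (17 genes, median 0.08, or -0.01 on the counts as deposited) held ASS1 as the 1 call, and ASNS and GPT2 rose in both lines. IGF system genes (11 genes, median -0.02, or -0.37 over 12 genes on the counts as deposited) held IGFBP5, and plasminogen activators and serpins (8 genes, median -0.76, or -0.38 without PLAU and SERPINB2, near 0 in KELLY) held PLAU. The 4 tested blood cell markers and 3 Schwann cell markers had no call, and HBB and HBA2, at 0 counts in SK-N-AS with DMSO, are not given a fold.

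**Figure D5:**
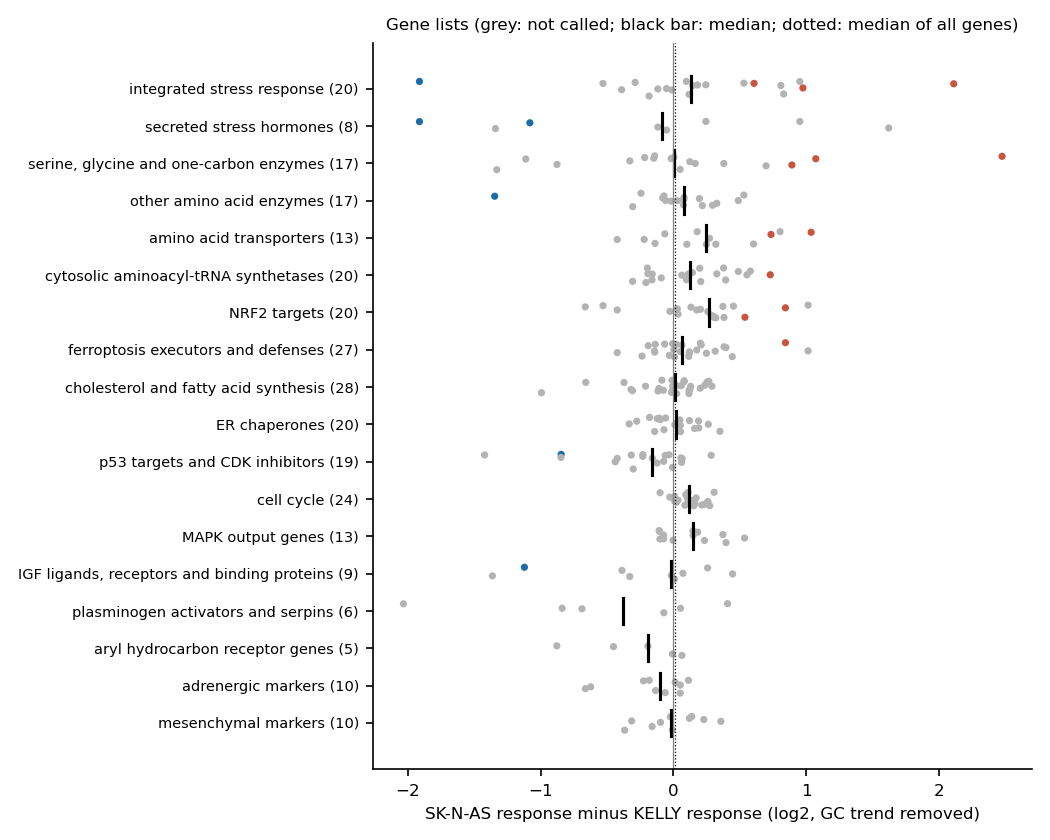
SK-N-AS response minus KELLY response (log2, GC trend removed) of the members of 18 gene lists, a point per gene, with the number of members in brackets and members near 0 in a group left out. Red and blue points are called genes, black bars list medians, and the dotted line the median of all genes, 0.01. NRF2 targets have the highest median of these lists, 0.27, close to amino acid transporters at 0.25. On the counts as deposited the order of these lists is reversed, 0.17 and 0.22.

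The NKG2D ligand ULBP1, a ligand of an activating receptor of natural killer cells, rose in both lines by the test, and none of the 5 tested NKG2D ligands was called. KELLY libraries had 115, 82 and 108 counts with DMSO and 213, 273 and 301 counts with Erastin. SK-N-AS libraries had 0, 2 and 0 counts with DMSO and 13, 21 and 24 counts with Erastin, a ratio of 28.1 (95% interval 7.43 to 237, counting error only). The difference was 3.04 ± 0.70 (SE; adjusted p = 0.18) and was not called. MYCN had 116651 to 159802 counts in the 6 KELLY libraries. In SK-N-AS it had 11, 7 and 11 counts with DMSO and 2, 3 and 1 counts with Erastin, a ratio of 0.20 (95% interval 0.068 to 0.491), and its difference of -1.98 ± 0.59 was not called (SE; adjusted p = 0.35).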

How the data were processed

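RNA-seq of 12 samples was analysed here. Per the labels and the methods of the study, paired-end reads were trimmed with Trimmomatic, aligned to GRCh38 and counted per GENCODE gene with HTSeq; the aligner and its strand setting are not given in the sources used here, so that reads of a gene and an antisense partner cannot be told apart. The authors deposited raw counts per gene, 1 table per line, without normalization. Total counts per sample, 24169796 to 29835670, set the counting precision.

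Groups were taken from sample labels. All 12 samples were fitted in R 4.3.3 with edgeR 4.0.16 (filterByExpr, TMM, quasi-likelihood test, Benjamini-Hochberg adjustment over all genes tested, no replicate block). CPM are TMM scaled. The GC trend was each library's loess curve (span 0.5, degree 2) of the log2 ratio to its line's mean on the GC content of a gene's exons in GENCODE annotation (GRCh38), used as an offset, and 2638 genes without a GC value were left out. Of 58735 rows, 1745 with a repeated name were kept as rows of their own and not matched. Of the others, 36194 were matched by symbol, 846 by RefSeq synonym and 4 by hand, and 19946 were not matched. Promoters came from RefSeq, and coordinates from GENCODE. The script was tested on simulated data.

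Genes named were those called, the smallest p-values in each direction, up to 3 members of each list by p, and SLC7A11, SLC3A2, ATF4, ULBP1 and MYCN; other list members, chosen after their values were seen, are given as examples. Members and lists were chosen with earlier results of these data known. Alternatives were RLE, library size, DESeq2 1.42.0, limma-voom (limma 3.58.1), other filters, protein-coding genes, a fold limit inside the model, a straight line on GC content, a replicate block, each library left out, and, chosen after seeing the data, linear increments, leaving out 3 libraries with haemoglobin reads, and list medians without genes near 0 (at most 3 counts in every library of a group). Intervals cover counting error only.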

Additional observations from a re-analysis of the deposited data

Results flagged for a closer look

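The following results were singled out because the response to Erastin differed between the 2 lines by the test of the difference itself (edgeR, adjusted p under 0.05). On the counts as deposited this was STC2, with a difference of -2.02. With the GC trend removed it was -1.91 for STC2, -1.35 for ASS1, -1.08 for STC1, -0.68 for DDC, -1.12 for IGFBP5, -0.85 for CDKN1A and -3.34 for PLAU, toward KELLY. Toward SK-N-AS it was 2.47 for PHGDH, 2.11 for CHAC1, 1.07 for PSAT1, 1.04 for SLC1A4, 0.97 for ATF4, 0.89 for MTHFD2, 0.84 for GCLM, 0.73 for AARS, 0.73 for SLC7A5, 0.70 for PPM1E, 0.61 for CEBPG, 0.55 for DDR2 and 0.54 for TXNRD1. The dose differed with the line in all of them.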

How the results depend on the processing

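On the counts as deposited the 1 call at an adjusted p under 0.05 became 20 with the GC trend removed, 12 with DESeq2 (8 of them among the 20), 8 with no filter on low counts (4 among the 20), 2 without the 3 libraries with haemoglobin reads and 0 with limma-voom and a spread per line, where 714 genes had an unadjusted p under 0.05. RLE size factors, library size alone, limma-voom, stricter filters, protein-coding genes and the fold limit inside the model left 1 call. Leaving out 1 library gave 1 to 3 calls, 3 without replicate 2 of KELLY with DMSO. With the GC trend removed, the 20 calls became 4 with the fold limit inside the model (STC2, ASS1, PHGDH and CHAC1), 16 with limma-voom and a spread per line (10 among the 20), 19 with a straight line on GC content and 41 without the 3 libraries with haemoglobin reads. Leaving out 1 library gave 13 to 21 calls, 13 without replicate 3 of KELLY with DMSO, replicate 1 or 3 of KELLY with Erastin, or replicate 3 of SK-N-AS with Erastin.

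With the replicate number as a block, 0 genes were called on the counts as deposited, where 420 had an unadjusted p under 0.05, and 2 with the GC trend removed, STC2 and ASS1. The block has 6 levels and leaves fewer degrees of freedom. It was also asked whether same-numbered samples deviated together, by the correlation of their deviations across genes. On the counts as deposited, this was -0.73, -0.75 and -0.11 in KELLY and -0.057, 0.16 and 0.28 in SK-N-AS. After GC correction the KELLY values were -0.32, -0.38 and 0.025, the first 2 being the lowest for their DMSO replicate. Differently numbered KELLY samples had values from -0.2 to 0.42, so that some shared deviation remained on the corrected scale. The SK-N-AS values became 0.051, 0.11 and 0.081, small but each the highest for its DMSO replicate. Whether the numbers pair the samples was not tested.

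At the threshold of the methods the 644 genes became 400 with the replicate block, 1723 with no filter, 312 with at least 10 counts in every sample and 388 with a mean of at least 10 counts in each line. Leaving out 1 library gave 496 to 1694, with 1694 without replicate 2 of KELLY with DMSO and 1294 without replicate 2 of KELLY with Erastin. The share toward SK-N-AS was 40.7% on the counts as deposited, 49.1% with the GC trend removed, 28.4% with no filter, and 26.1% and 32.0% without those 2 libraries.

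On the linear CPM scale with the GC trend removed, the difference (SK-N-AS minus KELLY) changed sign for SLC7A5 (-117 ± 42.4, SE) and PHGDH (-239 ± 57.2, SE). For STC2 (7.70 ± 5.15, SE) and CHAC1 (-0.16 ± 2.86, SE) the sign also differed, but within 2 standard errors of 0. Except where a block, another scale or fewer samples enter by construction, the cause of these changes was not tested.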
